A study of Mus musculus with 12 samples.

Results

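The 10 genes described here encode the peptide neurotensin and a receptor for it (Nts, Sort1), endothelin peptides with a receptor and a processing enzyme (Edn1, Edn2, Ednra, Ece1), the receptor of calcitonin gene-related peptide (CGRP) and its partners (Calcrl, Ramp1, Ramp2), and the vascular ligand angiopoietin 2 (Angpt2). They were picked by symbol, with earlier results of this same comparison known, from 13318 genes with a value. Their levels are therefore given as a description. A fit over all genes included 5 of them, but it is not read as a test of them. RNA was sequenced from cumulus cells, the somatic cells around the oocyte, of Kunming mice; the labels also call them granulosa cells of antral follicles. The comparison was of 3 libraries from cells that received FSH and FBS over 18 hours with 3 libraries labelled untreated. FSH is a gonadotropin and FBS is fetal bovine serum, and both were given together, so their effects cannot be told apart. No culture time is given for untreated cells, and the labels do not say whether either group came from complexes whose oocyte had been removed, a preparation that the design text mentions.

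Neurotensin, the endothelins and CGRP are short peptides cut from longer precursors and act through receptors on the cell surface. Endothelin precursors need a last cut by endothelin-converting enzyme, which Ece1 encodes, and act through Ednra and Ednrb. The receptor Calcrl reaches the cell surface with a receptor activity-modifying protein (RAMP). With Ramp1 it binds CGRP, and with Ramp2 or Ramp3 it binds adrenomedullin. In the follicle, endothelins and angiopoietins are best known from the vessels and contractile cells of its wall, and neurotensin from granulosa cells near ovulation.

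FPKM (fragments scaled by transcript length and library total) was summed over first exons and over last exons of the rows with a gene's identifier, and the larger sum is given as its level. A gene with no row in a library was unlisted there, which is not a measured 0. Of the 10 genes, 5 were listed in all 6 libraries (Nts, Edn1, Ednra, Ece1, Ramp1), 4 in some (Sort1, Edn2, Calcrl, Angpt2) and 1 in none (Ramp2). Libraries 1 and 2 of a group were much closer to each other than to library 3. Of 9022 genes, 2.82% differed by more than 2-fold within this pair after FSH and FBS and 4.54% within the untreated pair; with library 3 the share was 15.9% to 22.9%. Each such pair was averaged into a single sample, which leaves n = 2 in each group. No label states separate cultures or animals, and p-values then cover no more than the differences among these samples, possibly technical ones. The sequencing depth is unknown. In such bulk samples, fewer cells of a type and less RNA per cell cannot be told apart. Granulosa and cumulus markers were present, 10 or 11 of 12 in every library, summing to 563 to 727 FPKM after FSH and FBS and 574 to 705 FPKM in untreated cells. Inha was the highest of them in every library, at 276 to 502 FPKM. Foxl2 was unlisted in all 6 libraries, and Cyp19a1 was listed only in FSH and FBS libraries 1 and 2.

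**Figure D1:**
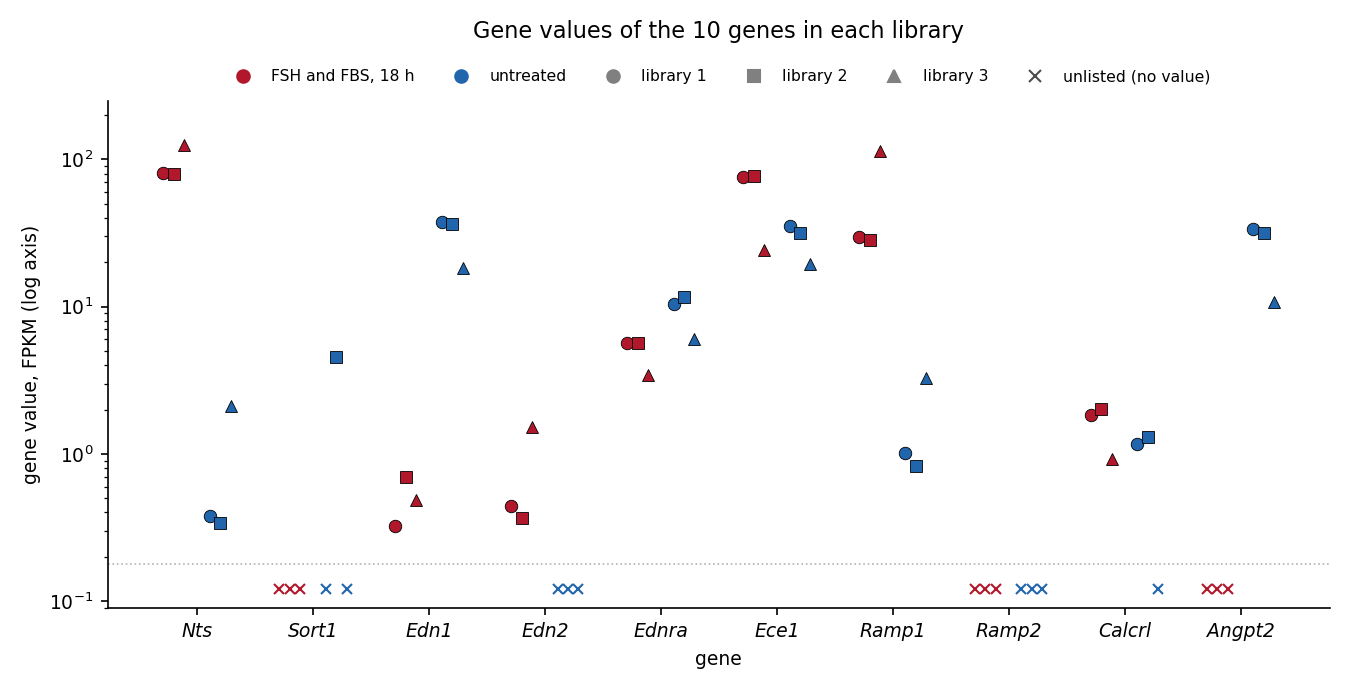
Gene values (FPKM, log axis) of the 10 genes in 3 FSH and FBS libraries (red) and 3 untreated libraries (blue); crosses mark libraries where a gene was unlisted and have no value. Nts and Ramp1 lie higher and Edn1 lower in every FSH and FBS library than in every untreated one, Angpt2 is listed only in untreated libraries and Edn2 only in FSH and FBS libraries.

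Nts, the precursor of neurotensin, had the highest mean level of the 10 genes in cells given FSH and FBS. It lies on chromosome 10, from 102481760 to 102490418 on the minus strand, as the files give positions. Its level was 81.3, 80.1 and 125.2 FPKM after FSH and FBS, against 0.376, 0.341 and 2.10 FPKM in the untreated libraries. The groups did not overlap, and library 3 was the highest of each group. The means were 102.9 ± 31.5 FPKM after FSH and FBS and 1.23 ± 1.23 FPKM in untreated cells (SD, n = 2 each), an 83.6-fold ratio and a difference of 5.63 in log2(FPKM + 1) with a standard error of 0.48. In every FSH and FBS library Nts stood above 95.2% to 95.4% of the genes listed, and in the untreated libraries above 4.56% to 22.6%. Only 1 first exon and 1 last exon were listed for it. Their values were identical in each library, so they are not read as separate measurements. Leaving out 1 library at a time gave log2 differences of 5.31 to 6.22, the lowest without FSH and FBS library 3 and the highest without untreated library 3.

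The Nts promoter window is shown because Nts had the largest log2 difference of the 5 genes listed in all libraries and the deposited first exon began on the same base as the RefSeq start. It covers chr10:102490369-102490668 on the minus strand (RefSeq, GRCm38.p6), with 250 bases before the start and 50 after it. Capitals mark an AP-1 site, here as TGAGTCA at -207, and a short cAMP response element, here as CGTCA at -166.
Nts: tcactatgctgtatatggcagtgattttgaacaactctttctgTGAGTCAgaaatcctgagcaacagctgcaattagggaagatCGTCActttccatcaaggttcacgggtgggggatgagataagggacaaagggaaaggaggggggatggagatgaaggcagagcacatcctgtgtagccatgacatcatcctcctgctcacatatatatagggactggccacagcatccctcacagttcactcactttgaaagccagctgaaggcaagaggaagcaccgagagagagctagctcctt
Both strands were searched for 6 motifs. The full cAMP response element was searched as TGACGTCA. Its short form, which overlaps the full one wherever that occurs, was searched as TGACG. The AP-1 site, bound by Fos and Jun proteins in many cell types, was searched as TGACTCA. The site of steroidogenic factor 1, a regulator of steroid-making cells, was searched as CAAGGTCA. The TATA box, which places the start of transcription in some promoters, was searched as TATAAA. The core of the hypoxia response element, read by hypoxia-inducible factors, was searched as ACGTG. Over all 32851 promoter windows of this length, 5.20% held the AP-1 letters and 20.8% the short cAMP response element. The full cAMP response element occurred in 1.79% of windows and in none of the 10 windows of these genes. Such a match describes the letters only.

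Edn1, the precursor of the vasoconstrictor endothelin 1, was lower in every FSH and FBS library than in every untreated one. The gene spans 42301270 to 42307989 on the plus strand of chromosome 13. It had 0.321, 0.699 and 0.484 FPKM after FSH and FBS, against 37.7, 36.4 and 18.1 FPKM in untreated cells. Untreated library 3 was the lowest of its group, and the groups did not overlap. The means were 0.497 ± 0.018 FPKM after FSH and FBS and 27.6 ± 13.4 FPKM in untreated cells (SD, n = 2 each), which is 55.5-fold lower. The log2(FPKM + 1) difference was -4.17 with a standard error of 0.43, and it ranged from -4.67 to -4.09 when 1 library was left out. In untreated libraries 1 and 2 a longer first-exon form, running through to 42305104, carried 3.84 and 3.59 FPKM, or 10.2% and 9.88% of the first-exon sum. It was not listed in untreated library 3, where a form that keeps the intron from 42303725 to 42304946 was listed at 1.97 FPKM.

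The Edn1 window, shown as the counterpart that was lower, is chr13:42301226-42301525 on the plus strand (RefSeq, GRCm38.p6). Capitals mark a hypoxia response core, here as CACGT, 22 bases after the start. The deposited first exon began at -206 from the RefSeq start, so most of this window lies inside that exon.
Edn1: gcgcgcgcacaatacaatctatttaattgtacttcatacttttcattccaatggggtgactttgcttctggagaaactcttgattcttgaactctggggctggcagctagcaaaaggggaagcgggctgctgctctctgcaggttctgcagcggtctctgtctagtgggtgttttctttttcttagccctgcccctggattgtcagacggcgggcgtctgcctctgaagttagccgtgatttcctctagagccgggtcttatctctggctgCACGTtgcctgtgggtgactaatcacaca
The hypoxia response core occurred in 19.6% of all windows, and no other searched motif was found in this one.

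Edn2, the precursor of endothelin 2, which in rodents is known from granulosa cells around ovulation, was listed only after FSH and FBS. It lies on chromosome 4, from 120161206 to 120167360 on the plus strand. Its level was 0.441, 0.366 and 1.53 FPKM after FSH and FBS, and it was unlisted in all 3 untreated libraries. At these levels it stood above 4.72% to 15.8% of the genes listed, so it was among the lowest genes with a value. A pattern of 3 FSH and FBS libraries and 0 untreated ones held for 1.05% of all genes with a value. Because it has no untreated value, no fold is given.

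Angpt2, the ligand that antagonises or activates the receptor Tek depending on context, showed the opposite listing. It spans 18690263 to 18741562 on the minus strand of chromosome 8. It was unlisted in all 3 FSH and FBS libraries and at 33.6, 31.5 and 10.7 FPKM in the untreated libraries. Untreated libraries 1 and 2 were about alike, and library 3 was the lowest. The untreated mean was 21.6 ± 15.5 FPKM (SD, n = 2), and its levels stood above 65.0% to 88.2% of the genes listed there. Of all genes with a value, 1.13% were listed in 0 FSH and FBS and 3 untreated libraries. No row under another identifier lay on its position, and its first-exon and last-exon values were identical in each untreated library. Tek, the receptor of angiopoietins, and the related receptor Tie1 were unlisted in every library.

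Ednra, the receptor that responds to endothelin 1 and 2, was moderately expressed in both groups. The gene spans 77663031 to 77724464 on the minus strand of chromosome 8. It had 5.64, 5.62 and 3.41 FPKM after FSH and FBS, against 10.4, 11.6 and 5.98 FPKM in untreated cells. All 3 FSH and FBS libraries lay below all 3 untreated ones, although FSH and FBS library 1 and untreated library 3 were close. The means were 4.52 ± 1.57 FPKM after FSH and FBS and 8.50 ± 3.56 FPKM in untreated cells (SD, n = 2 each), with a log2(FPKM + 1) difference of -0.76 and a standard error of 0.43. Rows of 4933431K23Rik, on the opposite strand, overlapped its position in untreated libraries 2 and 3. Whether the values use strand is not given in the sources used here.

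Ece1, which encodes endothelin-converting enzyme 1, was expressed in every library and its groups overlapped. It spans 137862237 to 137965229 on the plus strand of chromosome 4. It had 75.7, 77.1 and 24.1 FPKM after FSH and FBS, against 35.2, 31.9 and 19.6 FPKM in untreated cells. FSH and FBS libraries 1 and 2 were the highest of the 6, but library 3 lay within the untreated range. The means were 50.2 ± 37.0 FPKM after FSH and FBS and 26.5 ± 9.88 FPKM in untreated cells (SD, n = 2 each), with a log2(FPKM + 1) difference of 0.73 and a standard error of 0.56. Without FSH and FBS library 3 the difference was 1.54, and without untreated library 3 it was 0.35.

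Ece1 was read from 3 first exons and 1 last exon. The most upstream first exon, from 137862237 to 137862381, held 70.7%, 65.1% and 47.2% of the first-exon sum after FSH and FBS, against 65.1%, 55.0% and 64.5% in untreated cells. The middle first exon, from 137913471 to 137913629, held 15.7%, 18.2% and 34.8% after FSH and FBS, against 19.0%, 24.4% and 8.16% in untreated cells. These shares overlapped between the groups. A cassette exon behind the upstream start ran from 137905070 to 137905155. In FSH and FBS libraries 1 and 2, its included form held 20.3% and 20.0% of the included and skipped forms together. The share was 0.319% and 8.0% in untreated libraries 1 and 2. It is a share of the signal from the upstream start, not of the whole gene. The included form was not listed in library 3 of either group, so only 1 sample per group has this share and it has no replicate check.

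**Figure D2:**
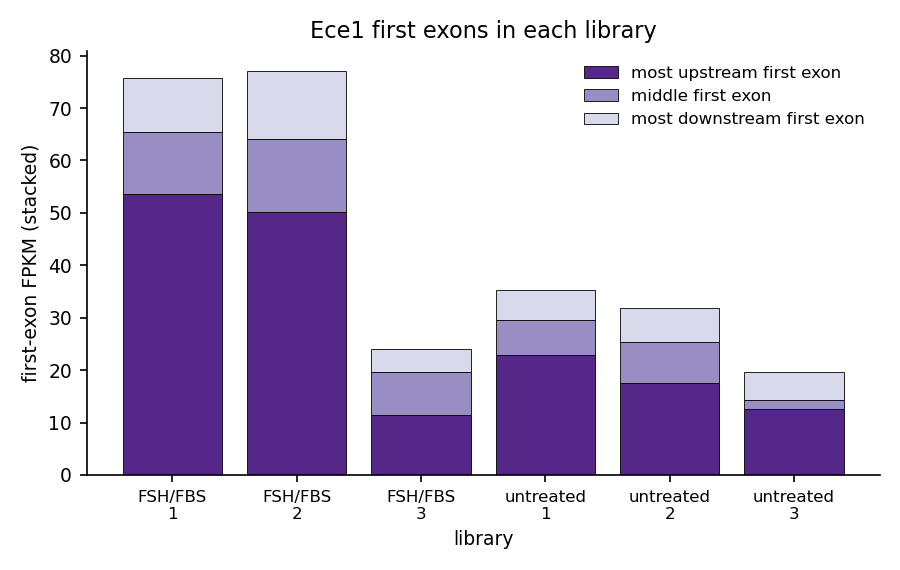
Stacked FPKM of the 3 Ece1 first exons in each library, with the FSH and FBS libraries on the left and the untreated libraries on the right. FSH and FBS libraries 1 and 2 reach 75.7 and 77.1 FPKM, while FSH and FBS library 3, at 24.1 FPKM, lies between the untreated libraries.

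Ramp1, the partner that turns Calcrl into a CGRP receptor, was higher in every FSH and FBS library than in every untreated one. It spans 91177832 to 91225196 on the plus strand of chromosome 1. It had 29.6, 28.3 and 114.7 FPKM after FSH and FBS, against 1.01, 0.833 and 3.29 FPKM in untreated cells. Library 3 was by far the highest in both groups. The means were 71.8 ± 60.7 FPKM after FSH and FBS and 2.11 ± 1.68 FPKM in untreated cells (SD, n = 2 each), a 34.1-fold ratio and a log2(FPKM + 1) difference of 4.36 with a standard error of 0.66. Without FSH and FBS library 3 the difference was 3.38, and without untreated library 3 it was 4.94. FSH and FBS library 3 also listed a second, upstream first exon, from 91177832 to 91177967, at 54.6 FPKM, or 47.6% of its first-exon sum. The other first exon, from 91179822 to 91180140, held all of the first-exon signal in the remaining 5 libraries.

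The Ramp1 window is shown because this first exon began on the same base as the RefSeq start in all 6 libraries. It is chr1:91179572-91179871 on the plus strand (RefSeq, GRCm38.p6), and capitals mark a short cAMP response element, here as CGTCA, 11 bases after the start.
Ramp1: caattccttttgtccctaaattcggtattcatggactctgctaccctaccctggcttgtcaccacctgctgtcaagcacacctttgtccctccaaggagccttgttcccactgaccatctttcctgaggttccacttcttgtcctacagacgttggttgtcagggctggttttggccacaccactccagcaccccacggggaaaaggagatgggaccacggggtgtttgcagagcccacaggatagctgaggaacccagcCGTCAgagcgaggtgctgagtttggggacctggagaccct
Of the 10 windows of the 7 genes that had any, those of Nts and Ramp1 held the short cAMP response element. This is near the 20.8% of all windows that hold it, so nothing is read from it. Sort1, Ramp2 and Angpt2 had no window in the table used.

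Ramp2, the partner that gives an adrenomedullin receptor, had no row under its own identifier in any library. Rows on its position were listed under the identifier of Vps25, the next gene on the same chromosome and a part of the ESCRT sorting machinery. These rows were found with the RefSeq positions of GRCm38.p6. The build of the files is not given in the sources used here, but 5198 of 12767 genes had an event edge on exactly the same base as an edge of their RefSeq gene. The first exon from 101246028 to 101246572 on chromosome 11 had 17.9, 11.3 and 37.5 FPKM after FSH and FBS, against 0.193, 0.0274 and 1.71 FPKM in untreated cells. A second one, from 101246933 to 101247144, had 6.04, 14.6 and 27.3 FPKM after FSH and FBS, against 0.274, 0.481 and 0.184 FPKM in untreated cells. Each was higher in every FSH and FBS library than in every untreated one.

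Summed over the first exons on the Ramp2 position, the signal was 23.9, 25.9 and 64.7 FPKM after FSH and FBS, against 0.467, 0.509 and 1.89 FPKM in untreated cells. The means were 44.8 ± 28.2 FPKM after FSH and FBS and 1.19 ± 0.99 FPKM in untreated cells (SD, n = 2 each), a 37.7-fold ratio and a log2(FPKM + 1) difference of 4.31. The Vps25 first exons past the Ramp2 position overlapped between the groups, with 1.11, 12.5 and 25.6 FPKM after FSH and FBS, against 16.4, 5.99 and 7.23 FPKM in untreated cells. The last exons under this identifier were at 6.87, 12.5 and 23.7 FPKM after FSH and FBS, against 14.7, 5.98 and 7.23 FPKM in untreated cells, and overlapped too. No last exon was listed on the Ramp2 position. Past it, first exons and last exons had near-equal sums in FSH and FBS library 2 and in untreated libraries 2 and 3. They differed most in FSH and FBS library 1, at 1.11 and 6.87 FPKM. Whether the rows on the Ramp2 position belong to a Ramp2 transcript or to a Vps25 transcript that starts there was not tested. This look at other identifiers was made after the values of the 10 genes were seen.

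**Figure D3:**
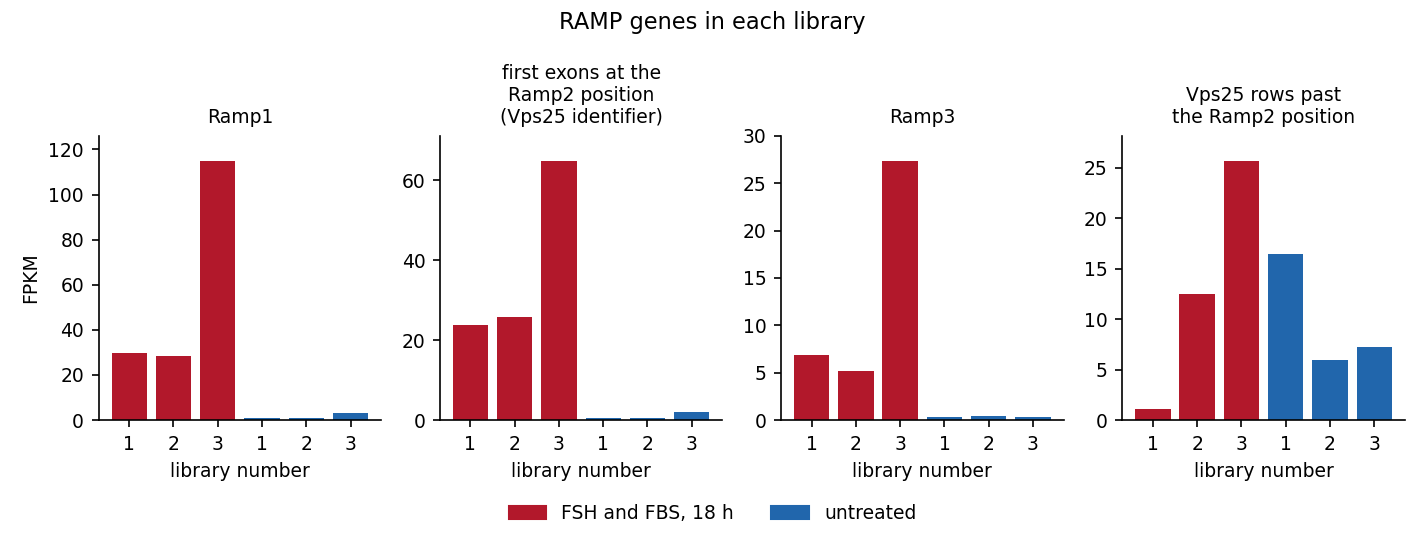
FPKM per library, on axes that start at 0, for Ramp1, the summed first exons on the Ramp2 position listed under the Vps25 identifier, Ramp3, and the Vps25 first exons past that position; FSH and FBS libraries are red, untreated libraries blue. The first 3 panels are near 0 in untreated cells and highest in FSH and FBS library 3, at 114.7, 64.7 and 27.3 FPKM, while the last panel overlaps between the groups.

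Calcrl, the receptor that the RAMPs partner, was low in every library that listed it. It spans 84330626 to 84425266 on the minus strand of chromosome 2. It had 1.84, 2.01 and 0.925 FPKM after FSH and FBS, against 1.16 and 1.30 FPKM in untreated libraries 1 and 2, and was unlisted in untreated library 3. The groups overlapped. The 2 ends of the gene gave different orders. In libraries 1 and 2 after FSH and FBS the first exon had 1.84 and 2.01 FPKM, against 0.135 FPKM in untreated library 1, and was unlisted elsewhere. The last exon had 0.972, 1.24 and 0.925 FPKM after FSH and FBS, against 1.16 and 1.30 FPKM in untreated libraries 1 and 2. In FSH and FBS libraries 1 and 2 a cassette exon, from 84407519 to 84407586, was included in 52.8% and 61.6% of its included and skipped forms together.

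Sort1 encodes sortilin, a sorting receptor that also binds neurotensin. Only untreated library 2 held rows under its own identifier, with 4.57 FPKM, on chromosome 3 from 108284082 to 108361443 on the plus strand. In the other 5 libraries, rows on its position carried the identifier of the predicted gene Gm12525. An alternative exon end, from 108356231 to 108356337, was listed in all 6 libraries under 1 identifier or the other. It had 4.36, 4.05 and 1.69 FPKM after FSH and FBS, against 5.72, 4.38 and 3.14 FPKM in untreated cells, and the groups overlapped. Its means were 2.95 ± 1.78 FPKM after FSH and FBS and 4.10 ± 1.35 FPKM in untreated cells (SD, n = 2 each). The G protein-coupled neurotensin receptors, Ntsr1 and Ntsr2, were unlisted in every library, and no first or last exon under another identifier lay on their positions.

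By mean FPKM, which is per length, the order after FSH and FBS was Nts, Ramp1, Ece1, Ednra, Calcrl, Edn2 and Edn1. The first 3, at 102.9 ± 31.5, 71.8 ± 60.7 and 50.2 ± 37.0 FPKM, did not differ beyond their spread. Calcrl, at 1.43 ± 0.71 FPKM, and Edn2, at 0.964 ± 0.793 FPKM, did not either, nor did Edn2 and Edn1, at 0.497 ± 0.018 FPKM, whose libraries overlapped. Within each FSH and FBS library, Nts was nonetheless above Ramp1 and Ece1. In untreated cells the order of the genes with a value in both samples was Edn1, Ece1, Angpt2, Ednra, Ramp1 and Nts. Edn1, Ece1 and Angpt2, at 27.6 ± 13.4, 26.5 ± 9.88 and 21.6 ± 15.5 FPKM, did not differ beyond their spread, nor did Angpt2 and Ednra, at 8.50 ± 3.56 FPKM, whose libraries overlapped, nor Ramp1 and Nts, at 2.11 ± 1.68 and 1.23 ± 1.23 FPKM (SD, n = 2 each). Within each untreated library, Angpt2 was nonetheless below Edn1 and Ece1 and above Ednra, and Ramp1 was above Nts. Calcrl and Sort1 had an untreated value in 1 sample only and were left out of the untreated order.

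In the limma fit over the 9022 genes listed in all 6 libraries at a mean of at least 1 FPKM, 5 of the 10 genes were included. Over all genes in the fit, 2.37% had an adjusted p under 0.05, 1.68% higher and 0.687% lower. Of the 10 genes, 2 higher (Nts and Ramp1) and 1 lower (Edn1) were among them, but they were chosen with this comparison known, so this is no test of them and nothing is read from their number. Ramp1 was no longer under that threshold after rescaling by median of ratios or with first-exon sums only. With unlisted genes set to 0, none of the 10 genes was. All 3 libraries of the groups stood apart for 29.4% of genes with FSH and FBS above and 9.54% with FSH and FBS below. Nts and Ramp1 were among the first and Edn1 and Ednra among the second. The median log2 difference of all genes was 0.24, so relative to it Nts stood at 5.39, Ramp1 at 4.11, Ece1 at 0.48, Ednra at -1.0 and Edn1 at -4.41. Rescaling by median of ratios brought that median to 0.0037 and gave 54.4% of calls as higher, beside 71.0% without rescaling.

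Of 83 other genes in 5 lists around these peptide systems, 57 were listed in at least 1 library and 36 were in the fit. In them, 1 passed as higher, Ramp3, and 1 as lower, Ackr3, beside 1.68% higher and 0.687% lower over all genes in the fit. The lists were drawn up with earlier results of these data known. Their adjusted p-values are therefore a description and no independent test, here and in the paragraphs on each list. Their median log2 difference was 0.22, beside 0.24 over all genes in the fit. Of the 26 genes listed in no library, 2 (Nmb and Itpr3) had first or last exons under another identifier on their position.

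**Figure D4:**
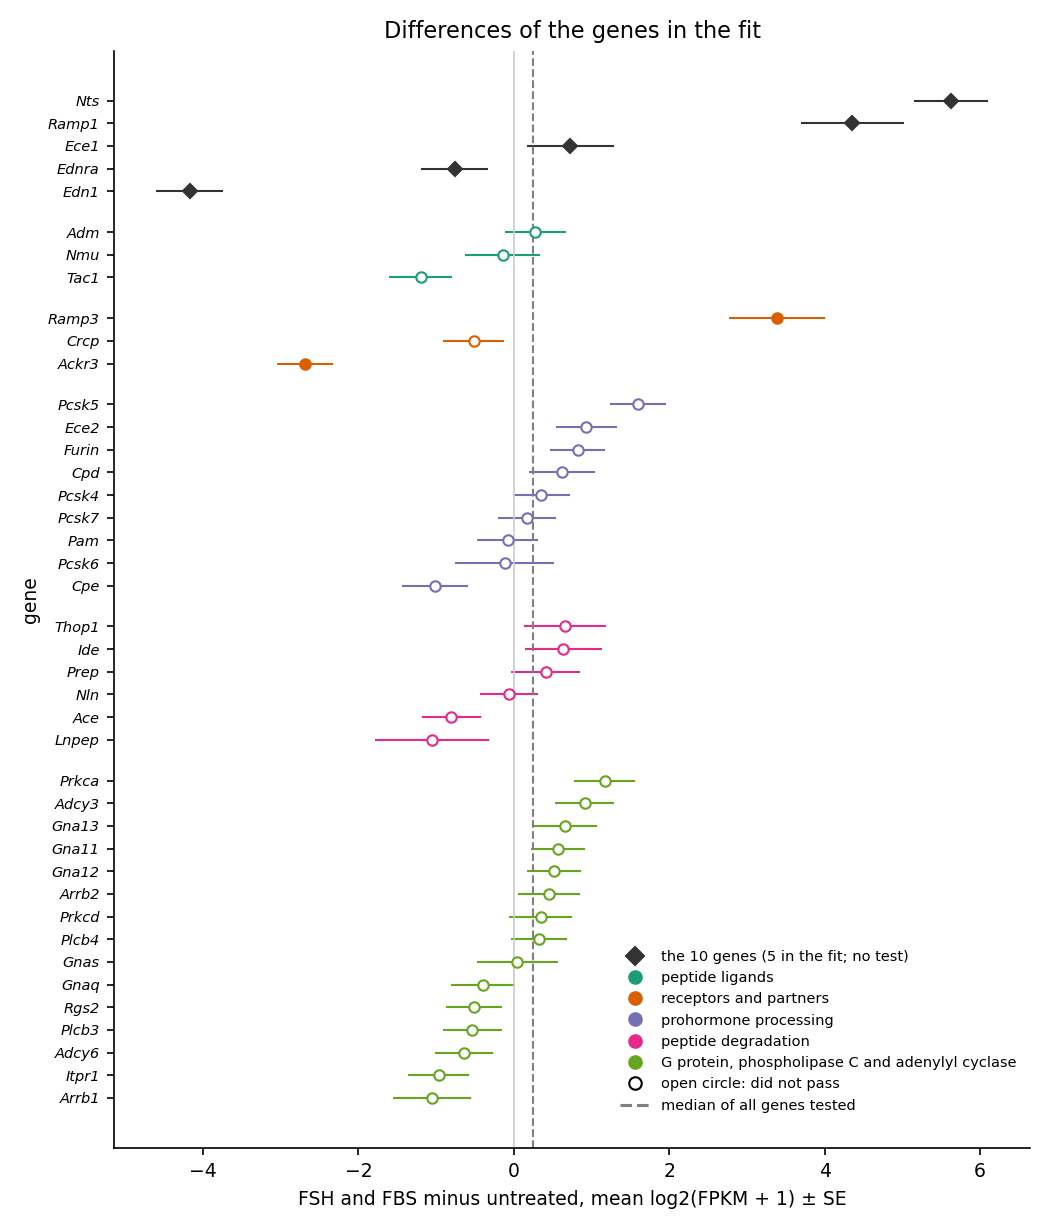
Differences in mean log2(FPKM + 1), FSH and FBS minus untreated, with standard errors, for 5 of the 10 genes (diamonds, no test) and the 36 genes of the 5 lists in the fit (circles, filled where they passed). Ramp3, at 3.38, and Ackr3, at -2.69, are the filled circles, and the dashed line is the median of all genes, 0.24.

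Among receptors and their partners, 3 of 13 genes were in the fit. Ramp3, the other RAMP of adrenomedullin receptors, was higher after FSH and FBS. It had 6.86, 5.20 and 27.3 FPKM after FSH and FBS, against 0.349, 0.426 and 0.315 FPKM in untreated cells (log2 difference 3.38, SE 0.62, limma adjusted p = 0.033). All FSH and FBS libraries were above all untreated ones, and FSH and FBS library 3 was the highest. The Ramp3 call was lost in 7 of 16 alternative settings, among them each of the 3 rescalings and the fit without untreated library 3, with adjusted p from 7.01e-05 to 0.20 over the settings. Ackr3 encodes an atypical receptor that takes up chemokines and adrenomedullin, and it was lower after FSH and FBS. It had 2.83, 2.39 and 1.86 FPKM after FSH and FBS, against 21.1, 22.5 and 17.8 FPKM in untreated cells (log2 difference -2.69, SE 0.37, limma adjusted p = 0.011). The groups were far apart, and the call was kept in 15 of 16 settings. Crcp, a CGRP receptor component that also serves RNA polymerase, had 14.6 ± 2.87 FPKM after FSH and FBS and 21.8 ± 8.10 FPKM in untreated cells (SD, n = 2 each; limma adjusted p = 0.57). Calcr, the calcitonin receptor, was unlisted in every library, and Ednrb, the other endothelin receptor, was listed at 0.442 FPKM in untreated library 2 only.

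Of 15 peptide ligand genes, 3 were in the fit and none passed. Tac1, the precursor of substance P, had 0.269, 0.408 and 0.306 FPKM after FSH and FBS, against 3.02, 2.69 and 1.39 FPKM in untreated cells (log2 difference -1.20, SE 0.41, limma adjusted p = 0.20). Its groups did not overlap, yet it did not pass. Adm, the precursor of adrenomedullin, had 2.10 ± 0.22 FPKM after FSH and FBS and 1.61 ± 0.70 FPKM in untreated cells (limma adjusted p = 0.77; SD, n = 2 each), and its log2 difference of 0.27 became -0.0037 without untreated library 3. Nmu, the precursor of neuromedin U, had 3.94 ± 2.01 FPKM after FSH and FBS and 4.52 ± 2.55 FPKM in untreated cells (limma adjusted p = 0.92; SD, n = 2 each). Named after its values were seen, Adm2, which encodes a further ligand of Calcrl with RAMPs, had 33.8, 32.4 and 58.4 FPKM after FSH and FBS. It had 0.774 and 0.490 FPKM in untreated libraries 2 and 3 and was unlisted in untreated library 1, so it was not in the fit. Calca and Calcb, the CGRP genes, and Edn3 were unlisted in every library.

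Of 15 precursor processing genes, 9 were in the fit and none passed. Pcsk5, a proprotein convertase, had 51.1, 51.0 and 51.3 FPKM after FSH and FBS, against 19.4, 20.3 and 13.1 FPKM in untreated cells (log2 difference 1.60, SE 0.36, limma adjusted p = 0.067). Furin, the convertase that cuts proendothelin first, had 21.9 ± 4.12 FPKM after FSH and FBS and 11.9 ± 1.67 FPKM in untreated cells (limma adjusted p = 0.30). Cpe, a carboxypeptidase that trims peptide ends, had 143.8 ± 34.7 FPKM after FSH and FBS and 288.9 ± 47.6 FPKM in untreated cells (limma adjusted p = 0.29). Pam, which amidates peptides such as CGRP and adrenomedullin, had 20.9 ± 3.90 FPKM after FSH and FBS and 22.7 ± 8.23 FPKM in untreated cells (limma adjusted p = 0.95; SD, n = 2 each).

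Of 11 genes of peptide-degrading enzymes, 6 were in the fit and none passed. Ace, angiotensin-converting enzyme, had 19.6 ± 2.64 FPKM after FSH and FBS and 35.8 ± 12.0 FPKM in untreated cells (limma adjusted p = 0.34). Thop1, which cleaves neurotensin, had 19.5 ± 13.9 FPKM after FSH and FBS and 10.7 ± 3.27 FPKM in untreated cells (limma adjusted p = 0.58; SD, n = 2 each). FSH and FBS library 3 was the highest for Thop1, at 29.3 FPKM, and without it the log2 difference turned from 0.66 to -0.10. Prep, prolyl endopeptidase, and Lnpep, an aminopeptidase, had log2 differences of 0.41 and -1.05 (limma adjusted p = 0.69 and 0.52; n = 2 each). Without FSH and FBS library 3 the Lnpep difference turned to 0.17, and without untreated library 3 the Prep difference was 0.035. Named after its values were seen, Mme, or neprilysin, which degrades endothelins among other peptides, was unlisted in all FSH and FBS libraries and had 8.33, 5.13 and 1.28 FPKM in untreated cells. Sorcs1, a relative of Sort1 named in the same way, was also unlisted after FSH and FBS and had 5.61, 5.46 and 1.71 FPKM in untreated cells.

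None of the 15 of 29 signalling genes in the fit passed. Gnas, the stimulatory G protein that Calcrl uses, had 146.8 ± 92.4 FPKM after FSH and FBS and 129.8 ± 32.0 FPKM in untreated cells (SD, n = 2 each; limma adjusted p = 0.98), with FSH and FBS library 2 at 10.4 FPKM against 152.6 in library 1. Its log2 difference of 0.04 turned negative under each of the 3 rescalings (-0.42 to -0.23) and without library 3 of either group (-0.64 and -0.21), and was -1.39 without FSH and FBS library 1. Itpr1, the inositol trisphosphate receptor that releases calcium, had 13.1 ± 1.47 FPKM after FSH and FBS and 27.7 ± 11.3 FPKM in untreated cells (limma adjusted p = 0.28; SD, n = 2 each). Rgs2, which restrains Gq proteins, and Prkcd, a protein kinase C, had log2 differences of -0.51 and 0.35 (limma adjusted p = 0.53 and 0.72; n = 2 each). The Prkcd difference was -0.0010 under quantile normalization and 0.79 without FSH and FBS library 3. A gene that did not pass is not shown to be unchanged.

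The genes whose profile was most like that of Nts, Ramp1 and Edn1 were sought by the smallest root mean square difference of centred log2(FPKM + 1) over the 6 libraries. Because the choice used these same values, library patterns shared with them follow from it. Nearest to Nts were Cth, of cysteine synthesis, at 0.44, the phospholipase gene Pla1a at 0.66 and Spp1, encoding osteopontin, at 0.71. Nearest to Ramp1 were Timp1, an inhibitor of matrix metalloproteinases, at 0.50, Spp1 at 0.51 and Pla1a at 0.60. Timp1 shared the high FSH and FBS library 3, at 297.5, 448.5 and 1342 FPKM after FSH and FBS against 41.1, 49.4 and 67.2 FPKM in untreated cells. Nearest to Edn1 were Ddit4l at 0.35, the imprinted gene Nnat at 0.38 and Gstt1, a glutathione transferase, at 0.43. Nnat had 5.02, 5.91 and 3.73 FPKM after FSH and FBS against 90.6, 93.4 and 43.8 FPKM in untreated cells, with untreated library 3 the lowest of its group, as for Edn1.

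Several of these genes are known from cells other than cumulus cells, and markers of those cells were summed per library. Endothelial markers, beside which Calcrl, the Ramp2 position, Edn1 and Angpt2 are read, summed to 3.37, 2.81 and 2.70 FPKM after FSH and FBS, against 0.0224, 0.515 and 0.984 FPKM in untreated cells. Each FSH and FBS library listed 2 of 15, with Cdh5 at 2.06, 2.63 and 2.58 FPKM; the untreated libraries listed 1, 3 and 1 and not Cdh5. Kdr, Tek, Tie1, Emcn and Cldn5 were unlisted in all 6 libraries. Mural and smooth muscle markers, the cells in which Ednra is best known, summed to 20.7, 20.3 and 29.4 FPKM after FSH and FBS, against 75.2, 74.4 and 68.0 FPKM in untreated cells, with 3 to 5 of 10 listed and most of the sum from Acta2. Theca and stroma markers summed to 11.4, 12.2 and 10.3 FPKM after FSH and FBS, against 16.9, 14.8 and 5.43 FPKM in untreated cells. Leukocyte markers without Cd79a, which was unlisted in untreated library 2 and at 199 to 460 FPKM elsewhere, summed to 4.17, 2.96 and 7.5 FPKM after FSH and FBS, against 10.7, 9.11 and 12.6 FPKM in untreated cells. Oocyte markers summed to 0.260, 0.157 and 20.0 FPKM after FSH and FBS, against 23.2, 26.0 and 30.8 FPKM in untreated cells. FSH and FBS library 3, the highest for Nts, Ramp1 and Edn2, was thus also apart from libraries 1 and 2 in oocyte markers. The part of these cells in the results was not tested.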

How the data were processed

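The deposited tables give, per library, transcript start, end and splicing events with positions and an FPKM value, per the file headers; no event is listed at 0. HISAT2 2.0.1 is named by the submitters' processing notes; which assembler, filters and genome build were used is not given in the sources used here. Because the files hold no counts, no counting interval is given. The 6 small-RNA libraries were not analysed here.

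Symbols came from a table of gene names, which matched 13281 of 13318 identifiers. Each gene took the larger of its first-exon and last-exon FPKM sums on the strand with most of its signal. Libraries 1 and 2 of a group were averaged. log2(FPKM + 1) was tested two-sided with limma 3.58.1 (R 4.3.3, trended prior; Benjamini-Hochberg adjusted p under 0.05) over 9022 genes listed in all 6 libraries at a mean of at least 1 FPKM. Fold changes on this scale understate the change of low genes. The fit was tested on simulated data.

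The 10 genes and all lists were chosen with earlier results of these data known. Named besides them were, of each list, the genes that passed and, up to 4, the genes listed in all 6 libraries with the highest mean FPKM, and the 3 genes most like Nts, Ramp1 and Edn1, leaving out predicted genes. The alternatives were other pseudocounts, filters, rescalings and exon sums, all 6 libraries as separate replicates, the replicate block and leaving out each library.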

Additional observations from a re-analysis of the deposited data

How the results depend on the processing

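Over 16 alternatives, Nts, Edn1, Ednra, Ece1 and Ramp1 kept their direction wherever they had a value. Their log2 differences ran from 5.27 to 6.65 for Nts, 3.38 to 4.96 for Ramp1, 0.35 to 1.54 for Ece1, -1.15 to -0.47 for Ednra and -5.45 to -4.09 for Edn1; with first-exon sums only, Edn1 and Ednra had none. Of 78 such values, 76 moved by less than 1 SD between samples. The others were Nts (6.65) and Edn1 (-5.45) at a pseudocount of 0.1. This count is no check of stability. The replicate block, the higher FPKM filter and unlisted genes as 0 left the values as they were. Leaving out library 3 of a group cannot move a value by more than that SD. Against 152 genes called higher and 62 lower by limma, all 6 libraries as separate replicates gave 973 and 350, median of ratios 49 and 41, equal sums 59 higher, and first-exon sums only 42 and 21. Setting unlisted genes to 0 gave 0 and 0 (1839 genes at an unadjusted p under 0.05); the cause was not tested. Leaving out 1 library gave 42 (without untreated library 3) to 253 (without FSH and FBS library 3) higher and 33 to 131 lower, the same 2 libraries setting both ends. Of the genes in the lists, 2 were called. That number was 9 with separate replicates, 1 at a mean of at least 5 FPKM, under each of the 3 rescalings and with first-exon sums only, 0 with unlisted genes as 0, and 1 to 3 without 1 library. Labels give the groups no shared animals or days. With the replicate block on the sample number, 1040 genes were called higher, 407 lower and 9 in the lists, among them Pcsk5, Itpr1 and Tac1, which did not pass without it (limma adjusted p = 0.0036, 0.043 and 0.045 with the block, 0.067, 0.28 and 0.20 without), and deviations of samples with the same number correlated at r = 0.51 over genes (2 pairs). With 2 samples in a group the deviations mirror each other, so the opposite pairing would only reverse the sign of r. The block fit also has less left to estimate the spread from, which limits what its larger number of calls shows. Unknown depth limits what can be said of the low genes Edn2 and Calcrl.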
